A study of Mus musculus with 6 samples.

Results

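*Rergl* and 6 related small GTPase genes, *Rerg*, *Rasl11a*, *Rasl11b*, *Rasl12*, *Rrad*, and *Gem*, were examined in bulk RNA-Seq data of the mouse ductus arteriosus (DA), the fetal artery that joins the pulmonary artery to the aorta and closes after birth. All 7 genes were present among the 23997 genes of the table, and all 7 passed the filter for testing, a mean of at least 1 FPKM (sequenced fragments of a gene relative to the length of its transcript and to the size of the library) over all libraries. *Rergl* was chosen by its measured difference between the groups, so its values are given as a description with no test, and it passed the filter only through the group in which it was high. The other 6 genes were picked by their relation to it.

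The DA was dissected at E17.5 from C57BL/6 embryos, with 3 libraries labelled WT and 3 labelled KO, whose genotype is given as Prdm6f/f with SM22-Cre. *SM22-Cre* drives Cre-recombinase in smooth muscle cells (SMCs), so the floxed *Prdm6*, which encodes a repressor of the PRDM family, is meant to be lost there and kept in the other cells of the vessel. The WT embryos were littermates, and the sources used here do not say whether they carried Cre or whether any library pooled embryos. If libraries of a group shared an embryo or a pool of embryos, the p values measure technical spread in part.

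The libraries did not separate cleanly by the targeted gene. *Prdm6* was at 41.7, 48.4, and 19.8 FPKM in WT libraries 0, 1, and 2 and at 48.6, 27.1, and 15.4 FPKM in KO libraries 0, 1, and 2, and which exons are floxed is not given in the sources used here, so this does not test the labels. KO library 0 held both *Xist* (81.0 FPKM), from the inactive X chromosome, and the Y-linked *Ddx3y* (26.4 FPKM). *Xist* was at 67.0, 0.053, and 0.043 FPKM in WT libraries 0, 1, and 2 and at 82.8 and 0.047 FPKM in KO libraries 1 and 2. The libraries of a group were therefore not all from the same embryo. WT library 2 stood apart, with 11886 genes listed at exactly 0 against 8338 to 10313 in the others, and its correlation across genes with each other library was 0.67 to 0.73, where the other pairs gave 0.75 to 0.85. Smooth muscle transcripts were abundant in every library, and their summed FPKM over 10 markers was 2534 to 5820 in WT and 906 to 2455 in KO, with no overlap. The total depth of the libraries is unknown, since FPKM values hold no counts.

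Small GTPases are molecular switches that are active with GTP bound and inactive with GDP bound. The genes here belong to 2 branches of the RAS family that lack the lipid anchor of the classical RAS proteins. The RERG and RASL branch comprises *Rergl*, *Rerg*, *Rasl11a*, *Rasl11b*, and *Rasl12*. RERG was described as a growth inhibitor under estrogen control, RASL11A acts on the transcription of ribosomal DNA, and the transcript of human *RERGL* is known as a marker of arterial smooth muscle. The RGK branch, here *Rrad* and *Gem*, binds the β subunits of voltage-gated calcium channels and lowers the calcium current, an input to smooth muscle contraction.

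The nucleotide-binding G1 loop is a part that the members share, and its 24 coding bases were read from the GENCODE transcript of each gene. The loop was searched as a glycine, any 4 residues, a glycine, a lysine, and a serine or threonine in the translated coding sequence, and each of the 7 genes held 1 match. The capitals mark the codons of the fixed glycine and of the fixed glycine and lysine.
Rergl: GGTggcaaaggtacaGGGAAAtca
Rerg: GGAagagcgggcgtgGGCAAGtca
Rasl11a: GGAgcgggttgtgtgGGCAAGagc
Rasl11b: GGGgccagcggcgtgGGCAAGacc
Rasl12: GGGcgccgcggagcgGGCAAGtct
Rrad: GGGgcgcctggtgtgGGCAAAagc
Gem: GGGgagcaaggagtgGGCAAGtcc

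The encoded proteins had 199 (*Rerg*) to 307 residues (*Rrad*), and 0 of the 7 ended in a cysteine followed by 3 residues, the box that carries the lipid of classical RAS proteins. *Rergl* had 204 residues and was 37.1% identical to *Rerg* over 194 aligned residues, and its identity with the other members was between 29.8% (*Gem*) and 39.0% (*Rasl11a*). The closest pair was *Rrad* and *Gem*, at 59.9%, followed by *Rasl11a* and *Rasl11b*, at 49.6%. At the level of the transcript the members were distinct. The longest run of bases that *Rergl* shared with another member was 13, and the longest between any members was 20 (*Rrad* and *Gem*). None of the 31-base words of the *Rergl* transcript occurred in a transcript of another gene of the annotation, and the same held for the other members except *Rrad*, for which 7.2% were shared with the antisense gene *Gm33023*. Reads from the shared stretch can be told apart only if strand was used, which is not given in the sources used here. *Rasl12* overlaps *Slc51b* on the other strand, which was listed at 0 in all 6 libraries.

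*Rergl* was listed at 0 in WT libraries 0, 1, and 2 and was at 18.9, 40.1, and 3.12 FPKM in KO libraries 0, 1, and 2. Every KO library therefore lay above every WT library, and KO library 2 lay far below the other KO libraries, so that the KO values spanned 12.9-fold. The KO mean was 20.7 ± 18.6 FPKM (SD, n = 3) and was 11.04 FPKM without KO library 1. No fold change is given against a group listed at 0. In KO library 1 *Rergl* had the second highest FPKM of the 7 genes, after *Rasl11b*, whereas in KO library 2 it had the lowest.

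**Figure D1:**
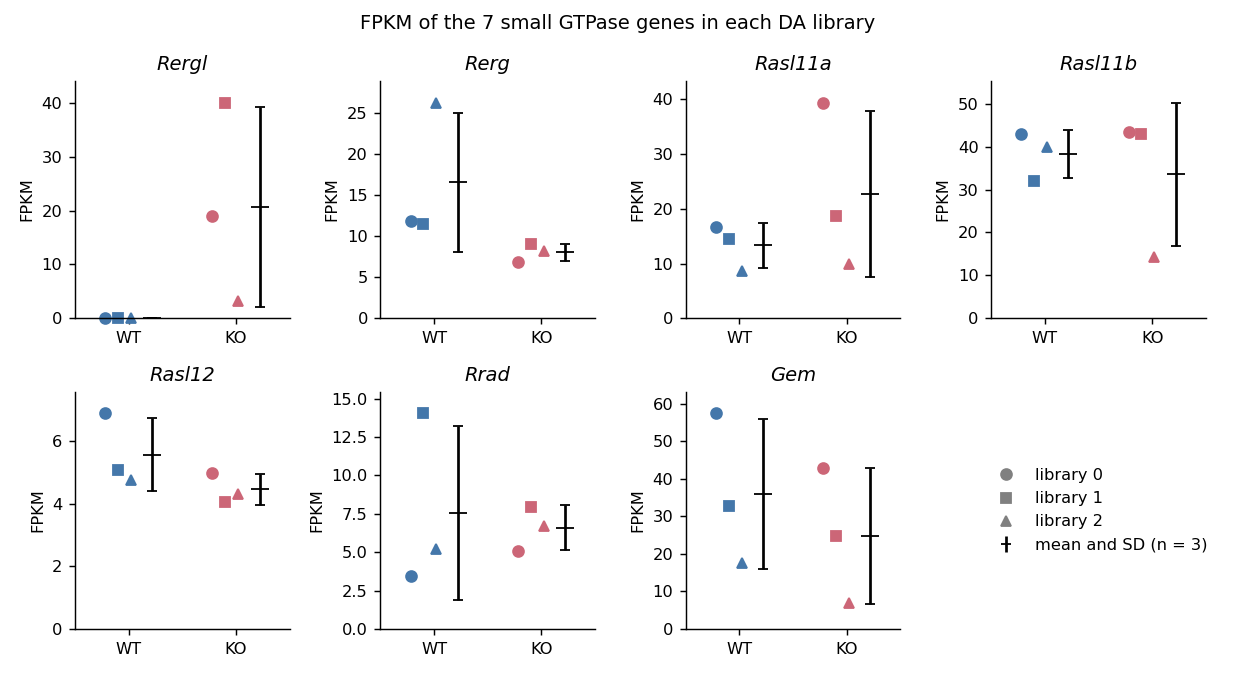
FPKM of each of the 7 genes (vertical axis, linear from 0) in the 3 WT and 3 KO libraries, with marker shape for the library number and the bar for mean and SD (n = 3). Rergl sits at 0 in all WT libraries and between 3.12 and 40.1 in KO, Rerg is lower in all KO libraries than in all WT libraries, and the groups overlap for the other 5 genes.

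An exact 0 in this table can stand for a gene with no signal or for an estimate that was not made, so the zeros of *Rergl* were set beside those of other genes. *Rn45s*, the precursor of ribosomal RNA that every cell makes, was listed at 0 in all WT libraries too and at 3060, 3806, and 4520 FPKM in KO libraries 0, 1, and 2. Whether the WT zeros of *Rn45s* and *Rergl* came from the tissue or from the processing was not tested. Among 3364 genes whose mean FPKM was within 1.5 times that of *Rergl*, 123 were listed at 0 in at least 1 library and 6 in at least 3 libraries. These 6 were *Rergl*, *Slurp1*, *Snora7a*, and 3 microRNA genes that were above 0 in a single library each, named here after their values were seen. Of all 23997 genes, 64 (0.267%) were at 0 in every WT library and above 0 in every KO library, and of the 12955 genes tested, 13 were. None of the other 6 members had an exact 0 in any library. Since *Rergl* was picked for this pattern, nothing is read from its presence among the 64 or among the 6.

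Low but nonzero values were present in the WT libraries for transcripts as short as that of *Rergl* (958 bases). Among 760 genes with a single annotated transcript within 1.2 times this length, 34 of 106 values above 0 in WT library 0 were no higher than 3.12 FPKM, the lowest KO value of *Rergl*. The same held for 75 of 142 in WT library 1 and for 17 of 77 in WT library 2, against 43.4% to 55.1% of the values above 0 in the KO libraries. Values at the level of KO library 2 were therefore listed in each WT library for genes of this length, least often in WT library 2, the library with the most zeros. These shares cover values above 0 only, so they do not show how often a gene at this level is listed at 0.

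*Rergl* lies on the minus strand of chromosome 6 of GRCm38 from 139492973 to 139501976 in 5 exons, and no annotated gene overlaps it. The nearest genes of the table are far away. *Pik3c2g*, 85245 bases off, was listed at 0 in the WT libraries and in KO library 1 and at 0.360 and 0.144 FPKM in KO libraries 0 and 2, and *4922502N22Rik*, on the other side, was at 0 in all 6 libraries. Neither neighbour was therefore high where *Rergl* was high.

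The RefSeq promoter table (GRCm38.p6) held 4 of the 7 members, and *Rergl* was the one with a CArG box in the 250 bases before its start site. The CArG box is the sequence bound by serum response factor, which drives the contractile genes of smooth muscle. It was searched by its consensus, which reads the same on both strands, and 1.47% of the 32851 promoters of this length held it, as did 0 of the 6 smooth muscle markers in the table. The box of *Rergl* is shown with 10 bases on either side because it is the known motif of smooth muscle genes in a gene that was listed at 0 in WT, and the capitals mark the box. The printed stretch is chr6:139501939-139501968 on the minus strand. The box lies 49 to 40 bases before the RefSeq start and begins at base 19 of the first GENCODE exon.
Rergl: acaaggacagCCATAAAAGGcactttcaaa
This match describes the letters only, and the absence of a match in *Rasl11a*, *Rasl11b*, and *Rasl12* covers this window alone.

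*Rerg*, the closest namesake, differed in the opposite direction. The gene is on the minus strand of chromosome 6, between 137054825 and 137170497, and the annotated transcript *4930480K02Rik* overlaps it on the same strand. The WT libraries 0, 1, and 2 had 11.8, 11.5, and 26.2 FPKM of *Rerg*, and the KO libraries 0, 1, and 2 had 6.88, 8.97, and 8.20 FPKM. Every KO library lay below every WT library, and WT library 2 was well above the other WT libraries. Differences were estimated with limma as log2 fold changes of KO against WT after 0.1 FPKM was added to each value. That of *Rerg* was -0.93 with a standard error of 0.37 and a 95% interval of -1.80 to -0.06, and limma gave an adjusted p = 0.591 over all genes tested (unadjusted p = 0.0391). The two-sided exact permutation test gave p = 0.1, the smallest that 3 libraries against 3 can give. Without WT library 2 the log2 fold change was -0.54 (adjusted p = 0.636). The ratio of *Rergl* to *Rerg* in the same library was 2.76, 4.47, and 0.381 in KO libraries 0, 1, and 2.

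Of the 6 members other than *Rergl*, 0 had an adjusted p under 0.05, where 1 of all 12955 genes (0.00772%), *Rn45s*, reached it. Before adjustment, 1 of the 6, *Rerg*, was lower with p under 0.05, against 4.97% of all genes, and 0 were higher, against 3.31%. The groups did not overlap for *Rerg* alone among the 6, where 7.84% of all genes lay lower without overlap and 8.21% higher. With 6 genes, these counts are near those of all genes.

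*Rasl11a* (chromosome 5 from 146845071 to 146847726) was at 16.7, 14.6, and 8.64 FPKM in WT libraries 0, 1, and 2 and at 39.4, 18.7, and 9.95 FPKM in KO libraries 0, 1, and 2. The groups overlapped, because KO library 2 lay within the WT range. The log2 fold change was 0.60 (standard error 0.50, adjusted p = 0.729 from limma), and it was 0.091 without KO library 0, so the size of the difference came mostly from that library.

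*Rasl11b* (chromosome 5 from 74195286 to 74199481) had the highest mean of the 7 in both groups. It was at 42.9, 32.04, and 39.9 FPKM in WT and 43.4, 43.0, and 14.3 FPKM in KO libraries 0, 1, and 2. KO library 2 was the low one, and without it the log2 fold change turned from -0.34 (standard error 0.42, adjusted p = 0.803 from limma) to 0.19. *Rasl11a* and *Rasl11b*, which are 49.6% identical, had the same order of the KO libraries, with WT orders that differed.

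*Rasl12* (chromosome 9 from 65398506 to 65414853) had the lowest mean of the 6 members other than *Rergl* in both groups. Its FPKM was 6.90, 5.08, and 4.75 in WT and 5.005, 4.07, and 4.32 in KO libraries 0, 1, and 2, and the groups overlapped. The log2 fold change was -0.30 (standard error 0.38, 95% interval -1.19 to 0.59, adjusted p = 0.807 from limma), and the sign held with each library left out (-0.40 to -0.14).

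The RGK genes were measured at different levels. *Gem* (chromosome 4 from 11704457 to 11714752) was at 57.5, 32.8, and 17.7 FPKM in WT libraries 0, 1, and 2 and at 43.0, 24.7, and 6.79 FPKM in KO libraries 0, 1, and 2. Both groups were spread widely and overlapped, by 3.25-fold within WT and 6.34-fold within KO. The log2 fold change was -0.73 (standard error 0.69, adjusted p = 0.749 from limma), and it was 0.017 without KO library 2.

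*Rrad* (chromosome 8 from 104628070 to 104631327) was at 3.46, 14.0, and 5.22 FPKM in WT and at 5.05, 7.97, and 6.72 FPKM in KO libraries 0, 1, and 2. All 3 KO values lay inside the WT range. The log2 fold change was 0.027 (standard error 0.55, 95% interval -1.24 to 1.30, adjusted p = 0.989 from limma), and its direction changed to -0.40 without WT library 0, to -0.11 without WT library 2, and to -0.12 without KO library 1. The 59.9% identical *Gem* and *Rrad* did not share their pattern over the libraries.

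**Figure D2:**
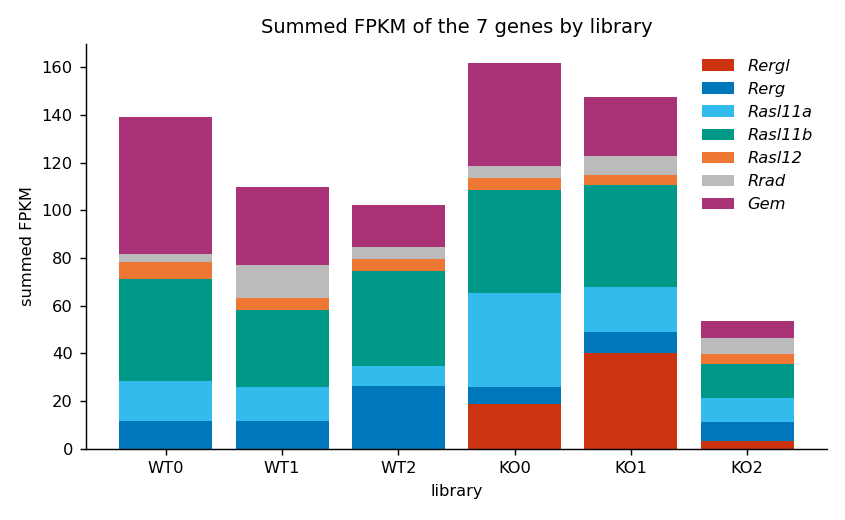
Summed FPKM of the 7 genes in each library (vertical axis, linear from 0), with a stacked segment for each gene. Rergl makes up 11.7%, 27.2%, and 5.84% of the sum in KO libraries 0, 1, and 2 and none of it in WT, and KO library 2 has the lowest sum.

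FPKM is scaled for transcript length, so levels can be compared between the genes. In WT the order of the means was *Rasl11b* (38.3 FPKM), *Gem* (36.0), *Rerg* (16.5), *Rasl11a* (13.3), *Rrad* (7.57), *Rasl12* (5.58), and *Rergl*, and each gene overlapped the next in its range except *Rasl12* and *Rergl*. In KO *Rasl11b* (33.6 FPKM), *Gem* (24.8), *Rasl11a* (22.7), *Rergl* (20.7), *Rerg* (8.02), *Rrad* (6.58), and *Rasl12* (4.46) followed each other, and only *Rrad* and *Rasl12* were apart. The summed FPKM of the 7 genes reached 139, 110, and 102 for WT libraries 0, 1, and 2, against 162, 148, and 53.4 for KO libraries 0, 1, and 2. Without *Rergl* the KO sums were 143, 107, and 50.3, so the sum in KO library 1 would have been below 2 of the WT libraries.

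**Figure D3:**
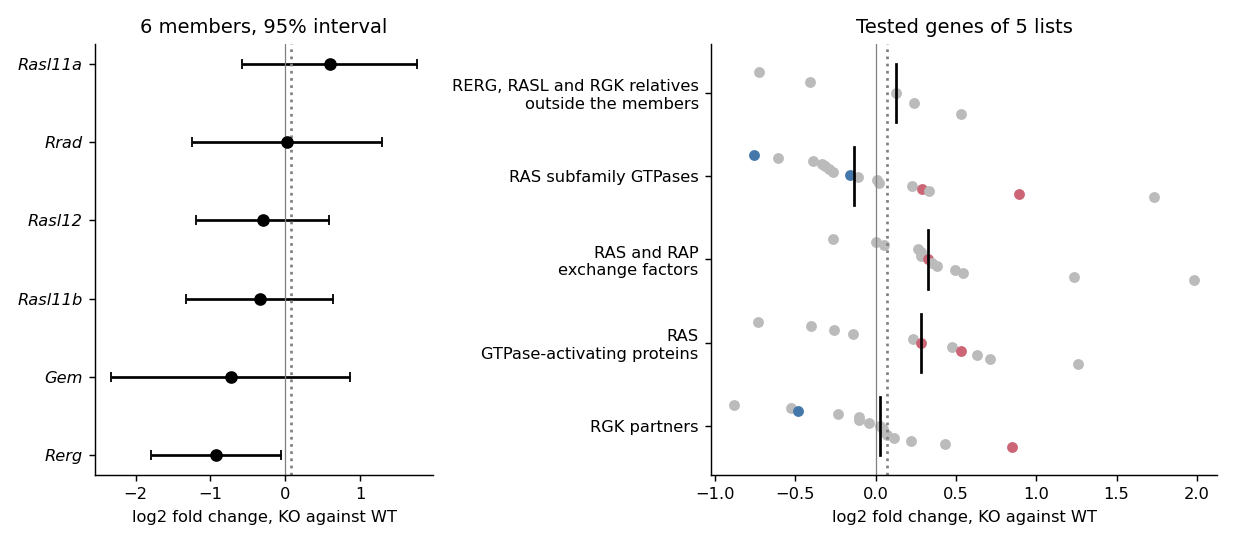
Left, log2 fold change of KO against WT on the log2(FPKM + 0.1) scale with its 95% interval for the 6 members other than Rergl. Right, the same value for the 60 tested genes of 5 lists of related genes, red where every KO library is higher than every WT library, blue where every one is lower and gray where the groups overlap. The black bars are list medians and the dotted line is the median of all genes tested, 0.072. Only the interval of Rerg lies apart from 0, and most related genes are gray.

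Genes around the members were counted in 5 lists, of which 60 of 83 genes were tested. None had an adjusted p under 0.05. Before adjustment, 1 was lower (1.67%) and 2 were higher (3.33%) with p under 0.05, and 3 of the 60 lay lower and 6 higher without overlap of the groups, beside the shares of all genes given for the members. Their median log2 fold change was 0.062, and that of all genes was 0.072.

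The remaining RERG, RASL, and RGK relatives, with DIRAS, RASD, and NKIRAS genes, numbered 11, and 5 were tested. None had p under 0.05 and the groups overlapped for all 5. *Rem1*, the third RGK gene, was at 10.9, 6.86, and 6.93 FPKM in WT and 2.63, 10.2, and 8.02 FPKM in KO. *Nkiras2*, the second most abundant of those tested, was at 6.21, 4.11, and 2.32 FPKM in WT and 8.13, 3.53, and 6.36 FPKM in KO. *Rem2* was listed at 0 in all 6 libraries, and *Rasl10a* was listed at 0 in KO libraries 0 and 2 and *Rasl10b* in WT library 2 and KO library 1. The relative with all WT libraries at 0 and a value in KO was *Rasl2-9*, which was at 0.091 FPKM in KO library 2 alone.

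Of 16 tested classical RAS, RAP, RAL, and RHEB genes, *Nras* was the one with p under 0.05. *Nras*, a classical RAS switch upstream of the MAP kinases, was at 8.62, 8.39, and 6.11 FPKM in WT and 14.3, 14.2, and 14.2 FPKM in KO. The KO values were nearly equal and all above WT, and limma put the log2 fold change at 0.89 ± 0.27 (SE), with an adjusted p = 0.535 (unadjusted p = 0.0107). *Rap1b*, the most abundant of the list and a regulator of cell adhesion, was at 57.1, 64.4, and 61.4 FPKM in WT and 78.7, 68.9, and 75.8 FPKM in KO, also without overlap (adjusted p = 0.641). *Mras* and *Rras2*, named after their values were seen, lay lower without overlap, whereas *Rras*, the second most abundant, overlapped, with 50.9 to 73.5 FPKM in WT and 28.4 to 75.4 in KO. Of this list 12.5% lay higher and 12.5% lower without overlap, against 8.21% and 7.84% of all genes.

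The regulators of these switches showed little. Of 13 tested exchange factors, which load GTP, 0 had p under 0.05. The same held for a list of 11 tested genes, made up of GTPase-activating proteins, which end the signal, and SPRED genes. *Rapgef5*, *Nf1*, and *Rasal2* lay higher in KO without overlap and none lay lower (named after their values were seen). These were 7.69% of the exchange factors and 18.18% of the list with the activating proteins, against 8.21% of all genes higher and 7.84% lower. *Nf1*, which encodes neurofibromin, was at 18.7, 17.8, and 9.97 FPKM in WT and 22.1, 19.8, and 22.8 FPKM in KO. The medians of both lists, 0.32 and 0.28, were above that of all genes, with no test of the list. *Rgl1* and *Rapgef6*, the most abundant exchange factors, and *Dab2ip* and *Rasa1*, the most abundant activating proteins, overlapped between the groups.

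Among the 15 tested partners of RGK proteins, the calcium channel subunit *Cacna2d1* and the calmodulin gene *Calm2* had p under 0.05. *Cacna2d1*, an α2δ subunit that brings the channel to the membrane, was at 8.59, 7.52, and 8.21 FPKM in WT and 19.7, 15.9, and 9.97 FPKM in KO (log2 fold change 0.85 ± 0.32 SE, adjusted p = 0.584 and unadjusted p = 0.0298 in limma). *Calm2* was at 483, 439, and 619 FPKM in WT and 365, 402, and 328 FPKM in KO (log2 fold change -0.48 ± 0.20 SE, adjusted p = 0.591 and unadjusted p = 0.041 in limma). *Calm3*, the second most abundant, overlapped. The pore subunit *Cacna1c* and the β subunits *Cacnb2* and *Cacnb3*, direct partners of *Gem* and *Rrad*, were all detected and overlapped between the groups, at 9.06 to 11.8, 6.32 to 9.99, and 12.2 to 23.2 FPKM in WT and 7.46 to 11.1, 4.45 to 6.40, and 15.3 to 22.4 FPKM in KO. For *Cacnb2* the overlap rested on KO library 0 (6.40 FPKM) against WT library 2 (6.32 FPKM). The β subunit *Cacnb1* overlapped too, at 0.974 to 8.53 FPKM in WT and 3.58 to 7.15 FPKM in KO, and *Cacnb4* was below the filter for testing.

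Cell type markers were read beside these values. With 3 libraries in a group, a shared order of the libraries often arises by chance and was not tested. In bulk tissue, fewer cells of a type and less RNA per cell cannot be told apart. Smooth muscle markers (10 genes, 6 of them lower in KO without overlap and 0 higher, against 7.84% and 8.21% of all genes tested) summed to 5820, 2891, and 2534 FPKM in WT libraries 0, 1, and 2 and to 2455, 1847, and 906 FPKM in KO libraries 0, 1, and 2. Within each group, *Gem* and *Rasl11a* had the same order of the libraries as this sum, *Rasl11b* had it within KO, and *Rasl12* had it within WT. Across the groups, *Gem* in KO library 0 (43.0 FPKM) was above *Gem* in WT library 1 (32.8 FPKM), whose marker sum was higher. *Rergl* was higher in KO, where this sum was lower. *Rasl11a* had its highest value in KO library 0 (39.4 FPKM), whose sum was below that of every WT library. The part of smooth muscle content in these genes was not tested.

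Erythroid markers (9 of 10 genes in the table, *Hba-a2* at 0 in all libraries) summed to 3873, 7584, and 4351 FPKM in WT and to 12667, 24386, and 4301 FPKM in KO libraries 0, 1, and 2. Within KO, *Rergl* and this sum had the same order. *Rergl* was listed at 0 in WT library 1 and at 3.12 FPKM in KO library 2, whose sum was the lower of these. The part of erythroid content in the *Rergl* values was not tested. Schwann cell markers (10 genes, 4 of them higher in KO without overlap and 0 lower) summed to 16.9 to 40.3 FPKM in WT and 49.5 to 180 FPKM in KO. Neuron markers (10 genes, 3 of them higher without overlap and 0 lower) summed to 18.9 to 37.4 and 43.4 to 79.6 FPKM. Of all genes tested, 8.21% lay higher and 7.84% lower without overlap. In KO library 0, the Schwann cell markers *Mbp* (1.06 FPKM) and *S100b* (1.57 FPKM) lay below every WT library. There, *Stmn2* alone gave 32.5 of the 43.4 FPKM of the neuron sum, and *Fabp7* gave 22.5 of the 49.5 FPKM of the Schwann cell sum. Both sums did not overlap between the groups and were highest in KO library 2, where *Rergl* was lowest. Their part in the *Rergl* values was not tested.

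Heart muscle markers (16 genes) summed to 1995 FPKM in WT library 1 and 2330 FPKM in KO library 2 and to between 177 and 772 FPKM in the other libraries. *Rrad*, which is abundant in heart and skeletal muscle, was highest in WT library 1 (14.0 FPKM) but not in KO library 2 (6.72 FPKM). Without these 2 libraries the log2 fold change of *Rerg* was -1.15, that of *Gem* was 0.030, and that of *Rasl11a* was 1.17. *Rergl* had its lowest KO value in a library high in these markers, and the mean of the other 2 KO libraries was 29.5 FPKM. The part of heart muscle content in the values of the members was not tested. Skeletal muscle markers (10 genes, *Myod1* at 0 throughout) summed to 37.6 to 66.0 FPKM in WT and 20.2 to 82.1 in KO, endothelial markers (8 genes) to 319 to 463 and 401 to 589, macrophage and leukocyte markers (9 of 10 genes) to 43.1 to 237 and 58.2 to 288, and epithelial and mesothelial markers (8 genes) to 66.7 to 233 and 82.1 to 185, all with overlap.

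**Figure D4:**
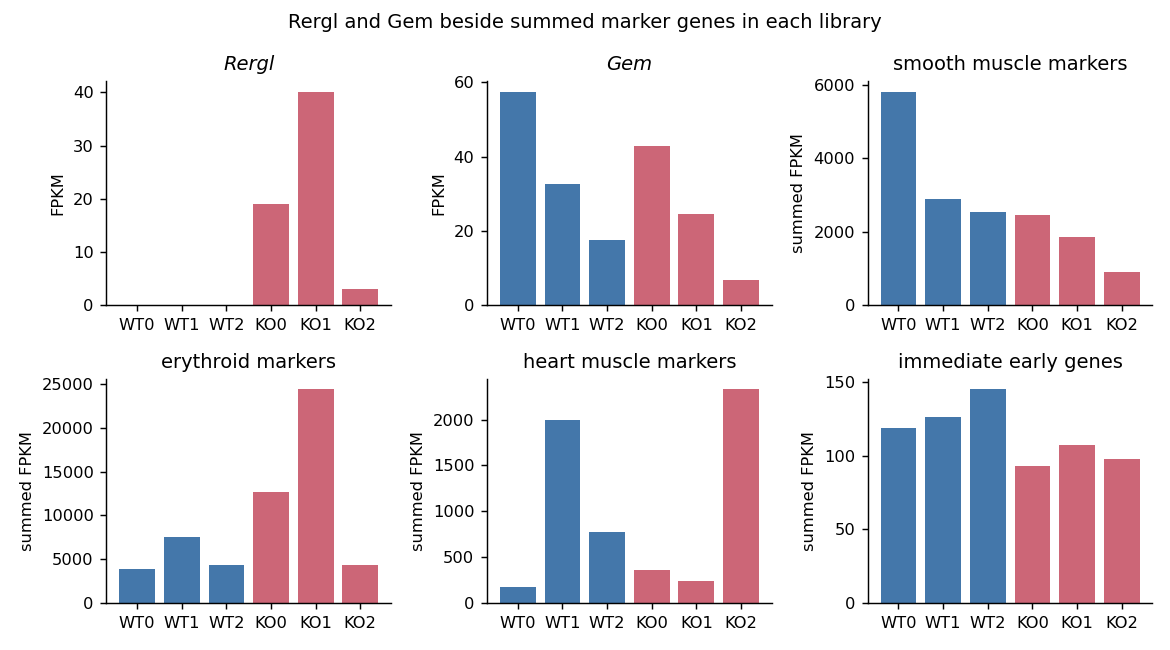
FPKM of Rergl and Gem and the summed FPKM of 4 marker lists in each library (vertical axes, linear from 0), with WT libraries in blue and KO libraries in red. Rergl and the erythroid sum have the same order within KO, the smooth muscle sum is lower in all KO libraries, and heart muscle markers are highest in WT library 1 and KO library 2.

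*Rrad* and *Gem* are induced by growth factors and other stimuli in many cells, so immediate early genes were read beside them. Their sum over 16 genes was 119, 126, and 145 FPKM in WT and 93.2, 107, and 97.6 FPKM in KO libraries 0, 1, and 2, lower in KO without overlap. Of the single genes *Egr1* lay lower in KO without overlap (11.7 to 13.6 FPKM in WT and 4.99 to 6.28 in KO), and *Egr3* higher (0 to 0.065 and 0.314 to 2.16 FPKM). Within KO, *Rrad* had the same order of the libraries as this sum, and within WT it did not. *Gem* had its order in neither group. The part of these genes in the values of *Rrad* and *Gem* was not tested.

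The genes whose values over the 6 libraries were most like those of *Rergl*, by the Pearson correlation of log2(FPKM + 0.1), were *Isca1* (r = 0.992), *Dcun1d3* (r = 0.988), *Exoc4* (r = 0.986), *Gm14436* (r = 0.985), and *Kdm7a* (r = 0.985). All 5 had a narrow WT range and were higher in KO, with the highest value in KO library 1 and the lowest KO value in KO library 2, as for *Rergl*. They differed from it in level and size. *Isca1*, which acts in the assembly of iron-sulfur clusters, was at 22.2, 22.9, and 22.0 FPKM in WT and at 35.7, 42.7, and 31.7 FPKM in KO, and *Kdm7a*, a histone demethylase, at 6.47, 6.73, and 6.35 and at 11.8, 15.2, and 11.2 FPKM. An r over 0.9 was found for 130 genes, and none of the other 6 members was among them. The highest r of a member with *Rergl* was 0.56 (*Rasl11a*) and the lowest was -0.72 (*Rerg*). These points share the split between the groups, and 6 libraries are few, so they describe the pattern only.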

How the data were processed

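The deposited values are FPKM, which the authors computed per gene and library with Cufflinks and Cuffdiff from trimmed reads aligned to mm10 by TopHat2. Versions, annotation, strand, and scaling between libraries are not given in the sources used here. Groups and library numbers came from the sample titles, and 0 columns were unmatched. Cuffdiff works on alignments and was not repeated, and log2(FPKM + 0.1) of the 12955 genes with a mean of at least 1 FPKM was compared with limma 3.58.1 in R 4.3.3 (moderated two-sided test, prior variance following the mean, Benjamini-Hochberg over all genes tested, threshold 0.05). The pseudocount understates changes of low genes. The fit was tested on simulated data. Positions and transcripts came from GENCODE vM21 on GRCm38, the assembly of mm10, and promoters from RefSeq. Identity was taken over aligned residues of a global alignment (Biopython 1.88, BLOSUM62).

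The members, gene lists, and tests were chosen with earlier results of these data known. Named are all members, list genes with p under 0.05, the 2 most abundant tested genes of each list, the 5 genes most like *Rergl*, and genes with an adjusted p under 0.05. The calcium channel subunits, *Rem2*, *Rasl10a*, *Rasl10b*, and *Rasl2-9* were added after their values were seen. Alternatives covered the pseudocount, filter, scaling, exact zeros, variance trend, replicate block, and left-out libraries. Protein sequences were not analysed here beyond the translated coding sequences.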

Additional observations from a re-analysis of the deposited data

How the results depend on the processing

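Of the 12955 genes tested, 1 was called, *Rn45s*, higher in KO and listed at 0 in every WT library. Whether its zeros came from the tissue or from the processing was not tested. The count of called genes, all of them higher in KO, became 0 with exact 0 taken as missing, which removes *Rn45s*, 2 without the mean-variance trend, and 2 without the 2 libraries highest in heart muscle markers, and it was 1 to 2 with each library left out (2 without WT library 1 and 2 without KO library 2). No gene was called lower in any of the 17 alternatives, while 644 were lower at an unadjusted p under 0.05 in the setting reported. None of the 6 members other than *Rergl* was called in any alternative. The difference of *Rergl* in log2(FPKM + pseudocount), 7.08 at 0.1, was 3.91 with a pseudocount of 1 and 10.38 with 0.01, so it is set by the pseudocount and is no fold, and with exact 0 taken as missing *Rergl* has no value.

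*Rerg* (-1.15 to -0.54, adjusted p 0.484 to 0.871), *Rasl11a* (0.091 to 1.17), and *Rasl12* (-0.46 to -0.14) kept their direction in all alternatives that gave a value. *Rasl11b* turned to 0.19 without KO library 2 (-0.61 to 0.19 over the left-out libraries) and to 0.063 without the 2 libraries highest in heart muscle markers. *Gem* turned to 0.017 (-1.31 to 0.017) and 0.030 in the same fits. *Rrad* turned to -0.085 with quantile normalization and ranged from -0.40 to 0.59 with each library left out. With the replicate block, limma again called 1 gene, and the members with an unadjusted p under 0.05 were *Rerg* and *Gem* in place of *Rerg* alone. The standard error of *Gem* went from 0.69 to 0.27 and its adjusted p from 0.749 to 0.553 (unadjusted p 0.321 to 0.0349), with the same log2 fold change, as a block gives in a balanced design. The deviations of same-numbered libraries correlated at 0.12, -0.076, and -0.0088 across genes, and those of the other pairs at -0.12 to 0.14. The same-numbered pairs did not stand out, but a pairing that touches few genes cannot be seen this way. Depth is unknown, and *Rasl12*, *Rrad*, and *Rergl* in KO library 2 rest on low FPKM.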

Other observations

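Over all 23997 genes, 64 were listed at 0 in every WT library and above 0 in every KO library, and 6 showed the reverse. The KO mean of the 64 had a median of 0.827 FPKM. *Rergl* and *Rn45s* were the 2 with a KO mean over 10 FPKM, and the next, *Ngp*, which encodes a granule protein of neutrophils, was at 1.90, 8.56, and 5.84 FPKM in KO libraries 0, 1, and 2. *H2-Eb1*, an MHC class II gene, was at 1.36, 2.36, and 4.47 FPKM, and *Hpca*, a calcium sensor of neurons, at 1.49, 2.24, and 3.27 FPKM, both highest in KO library 2, whereas *Tspan8*, at 3.92, 3.03, and 1.64 FPKM, was lowest there, as *Rergl* was. The genes named here were picked from the 64 with their values known. WT library 2 had the most zeros of all libraries.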
